A study of Homo sapiens with 24 samples.

Results

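The human mitochondrial genome is a small circular DNA that carries 37 genes, and the RNA read from these genes is described here across the whole series. The members were taken as every gene on the mitochondrial chromosome (chrM), whose symbols all begin with MT-. They number 37 of the 61533 genes in the table, namely 13 protein-coding genes, 2 ribosomal RNA (rRNA) genes and 22 transfer RNA (tRNA) genes, and all 37 had counts. Mitochondrial DNA is transcribed inside the organelle by POLRMT, a single-subunit RNA polymerase that works with the factors TFAM and TFB2M, and it is read from both strands as long precursors. The precursors are cut into separate RNAs mostly at the tRNAs that lie between the other genes. The coding genes give subunits of respiratory chain complexes I, III and IV and of the ATP synthase (complex V), and the tRNAs and rRNAs serve the translation of those subunits in the organelle.

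The cells were U2OS, an osteosarcoma line with very little glucocorticoid receptor (GR) of its own, and the method was 4sU-seq, which reads RNA made during a short pulse of a labelled nucleoside. Cells stably expressed GR fused to a HaloTag from a transposon, either as wt GR, as the K492A mutant (SoF, made to weaken RNA binding) or as the R470A mutant (Ctrl, a control for the weaker DNA binding of SoF). Dexamethasone, a drug that activates GR, was added at 100 nM and cells were taken after 1, 2 or 3 h. The samples called 0 h had 0.01% ethanol instead, for a time not given in the sources used here, and every dish received 200 µM 4-thiouridine for the final 1 h so that RNA made in that hour could be purified. There were 2 libraries for each of the 12 combinations of line and time, which makes 24 in all and 8 for each line. Each line was 1 sorted pool, so that the construct and the pool cannot be told apart, and the labels do not say whether the 2 libraries of a group came from separate cultures, so p-values measure the spread between libraries, which may be technical. The study's methods say that replicates went through biotin labelling and pulldown in pairs, so where a pair was the 2 libraries of a group, the group and its pulldown cannot be told apart.

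Library totals ran from 8106036 to 15820806 counts. NR3C1, the gene for GR, had a median of 633 CPM in wt, 2187 CPM in SoF and 2858 CPM in Ctrl, where CPM are counts scaled to a fixed library total after TMM (a scaling that removes differences in composition). Among bone and mesenchymal markers, RUNX2 (51.5 to 158 CPM), SPARC (207 to 382 CPM) and COL1A1 (250 to 1008 CPM) were present in all libraries, whereas COL1A2 stayed at or below 0.602 CPM and TWIST1 at or below 0.0674 CPM. The wt 0 h replicate 1 library stood apart in some plus-strand tRNAs, with 216 CPM of MT-TF against 139 CPM in the next highest wt library. The summed tRNAs did not stand apart, with 1454 CPM there and 1409 CPM in wt 1 h replicate 1. The wt 0 h replicate 1 library was also the highest wt library in the summed coding genes, with 66207 CPM against 58737 CPM in the next. The numbers of members called at 3 h and between lines are given with and without it. Levels, medians and most log2 changes are given with it only. In bulk samples such as these, fewer cells of a kind and less RNA for each cell cannot be told apart.

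The sequences below are those of the 9 tRNAs that fell between 0 h and 3 h when the lines were averaged, read in the sense direction from hg38. Capitals mark the anticodon, taken as the one match to its triplet near the middle of the gene with a T before it and a purine after it. Of the 9, 5 are on the plus strand and 4 on the minus strand.
MT-TF, the tRNA for phenylalanine, chrM:577-647, plus strand: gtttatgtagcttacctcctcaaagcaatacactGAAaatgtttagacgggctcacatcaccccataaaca
MT-TV, the tRNA for valine, chrM:1602-1670, plus strand: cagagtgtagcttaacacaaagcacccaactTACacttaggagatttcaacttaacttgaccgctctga
MT-TQ, the tRNA for glutamine, chrM:4329-4400, minus strand: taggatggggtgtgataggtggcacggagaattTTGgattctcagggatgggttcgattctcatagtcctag
MT-TW, the tRNA for tryptophan, chrM:5512-5579, plus strand: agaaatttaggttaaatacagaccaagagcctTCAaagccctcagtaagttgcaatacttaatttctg
MT-TA, the tRNA for alanine, chrM:5587-5655, minus strand: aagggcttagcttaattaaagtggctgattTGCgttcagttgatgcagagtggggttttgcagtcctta
MT-TY, the tRNA for tyrosine, chrM:5826-5891, minus strand: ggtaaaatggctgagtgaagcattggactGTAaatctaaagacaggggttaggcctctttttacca
MT-TS1, the tRNA for serine (UCN codons), chrM:7446-7514, minus strand: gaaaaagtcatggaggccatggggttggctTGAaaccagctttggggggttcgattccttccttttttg
MT-TK, the tRNA for lysine, chrM:8295-8364, plus strand: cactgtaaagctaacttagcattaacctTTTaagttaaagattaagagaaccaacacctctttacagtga
MT-TH, the tRNA for histidine, chrM:12138-12206, plus strand: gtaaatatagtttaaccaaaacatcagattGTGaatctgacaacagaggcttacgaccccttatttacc

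The next sequence is the tRNA with the lowest level in SoF relative to wt among the members that passed the test, again with the anticodon in capitals.
MT-TL1, the tRNA for leucine (UUR codons), chrM:3230-3304, plus strand: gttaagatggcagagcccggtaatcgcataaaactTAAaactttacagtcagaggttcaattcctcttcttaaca

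The last tRNA pair had the lowest levels of all tRNAs, and each lies between coding genes on the same strand with no base to spare.
MT-TG, the tRNA for glycine, chrM:9991-10058, plus strand: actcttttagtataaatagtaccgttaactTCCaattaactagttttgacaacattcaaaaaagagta
MT-TR, the tRNA for arginine, chrM:10405-10469, plus strand: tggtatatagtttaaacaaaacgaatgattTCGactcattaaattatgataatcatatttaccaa

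Coding genes share bases in 2 places, shown with the shared bases in capitals and 15 bases on each side. Reads that lie in the shared stretch belong to both genes, and how the counting treated such reads is not given in the sources used here.
MT-ATP8 into MT-ATP6, chrM:8512-8587, plus strand: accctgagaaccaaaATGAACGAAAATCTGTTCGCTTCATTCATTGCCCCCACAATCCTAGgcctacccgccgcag
MT-ND4L into MT-ND4, chrM:10745-10781, plus strand: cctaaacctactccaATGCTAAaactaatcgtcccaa

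Coding transcripts made up nearly all of the mitochondrial signal. The 13 coding genes took 3.55% to 6.21% of all counts of a library (median 4.60%), the 22 tRNAs 0.0752% to 0.141% and the 2 rRNAs at most 0.000353%. The widest 95% Wilson interval of a coding share was 0.0276 percentage points, so the spread between libraries and not the counting sets the precision. These intervals cover counting error only.

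Between coding genes, levels were compared per length. MT-CO1, which encodes the catalytic core of cytochrome c oxidase (complex IV), was highest with a mean of 6543 CPM per kb over 24 libraries (4754 to 9359). MT-CO3, another core subunit of complex IV, followed with 6239 CPM per kb (4576 to 8612), so the ranges of these neighbours overlapped. MT-ATP8 at 5339, MT-CO2 at 5180, MT-ND2 at 5099 and MT-ND1 at 4947 CPM per kb came next. Their ranges overlapped with each other and with those of MT-CO1, MT-CO3 and MT-ATP6. MT-ATP6 reached 4312 CPM per kb, MT-ND6 3804, MT-CYB 3315 and MT-ND4 3240. The lowest were MT-ND4L at 2140 CPM per kb, MT-ND3 at 1614 and MT-ND5 at 1536, all subunits of complex I. MT-ND5 is the longest member (1812 bases) and MT-ND3 the second shortest among the complex I genes (346 bases), so the low values were not limited to short genes. MT-ND6 is the one coding gene on the minus strand, and also the richest in uridine (37.7% of its bases, against 21.7% to 30.3% in the others), a base that bears on labelling because 4-thiouridine enters RNA in place of uridine. The part that uridine content had in the levels was not tested.

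The rRNAs, which are the most abundant RNAs of the organelle, were almost absent. MT-RNR1 (chrM:648-1601), the small-subunit rRNA, had 1 to 15 counts a library and MT-RNR2 (chrM:1671-3229), the large-subunit rRNA, 2 to 29 counts. The library kit removes rRNA before sequencing, so these values describe what escaped removal. The 2 rRNAs summed to 94 counts over the 8 wt libraries, 166 over the SoF libraries and 118 over the Ctrl libraries. No member of this class passed the test in a comparison, and MT-RNR1 fell below the count filter in the comparison of lines.

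The tRNAs spanned a wide range. MT-TF (1706 CPM per kb), MT-TP (1564), MT-TL1 (1216), MT-TE (1203), MT-TQ (1184) and MT-TS1 (1183) had the highest levels per length. MT-TF is the first gene of the plus-strand precursor, and MT-TP, MT-TE, MT-TQ and MT-TS1 lie on the minus strand. MT-TG had 5 to 32 counts a library (20.1 CPM per kb) and MT-TR 10 to 55 counts (29.8 CPM per kb). Their neighbours MT-CO3, MT-ND3 and MT-ND4L stood at 6239, 1614 and 2140 CPM per kb. A mature tRNA is short next to the reads and folds tightly, and the size selection of the libraries is not given in the sources used here, so the levels of tRNAs relative to the coding genes describe these libraries and not the cell.

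**Figure D1:**
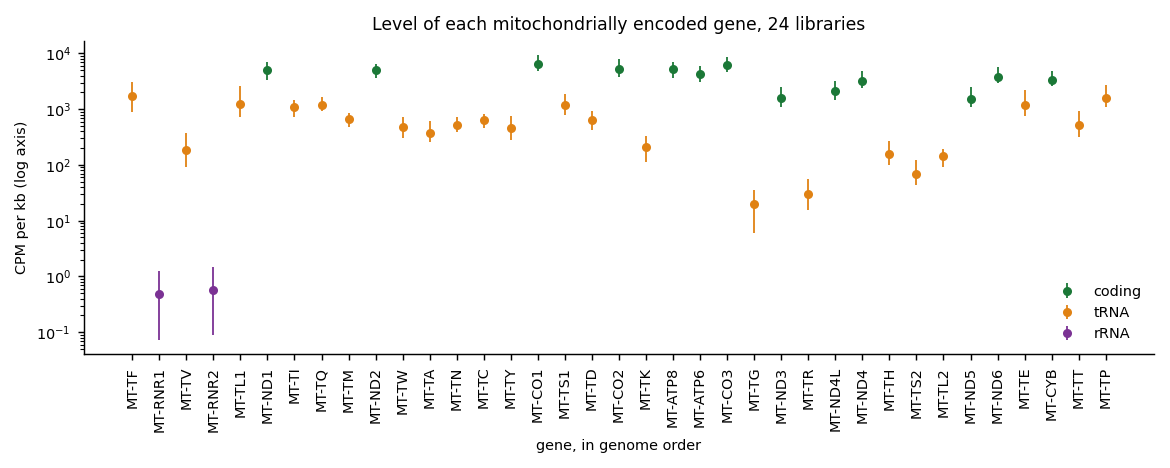
Mean level of each mitochondrially encoded gene in CPM per kb (log axis) over 24 libraries, in genome order; bars run from the lowest to the highest library. Coding genes lie between 1536 and 6543 CPM per kb, most tRNAs lower (MT-TG at 20.1), and both rRNAs below 1 CPM per kb.

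Of the coding genes, 7 have a near-identical nuclear copy in one stretch of chromosome 1, and the counting gave reads to both. MTND2P28 (chr1:629640-630683) aligned to MT-ND2 over 1042 bases at 98.4% identity, and 26.1% of the 100-base windows of MT-ND2 occur in it unchanged. It took 23.4% to 26.5% of the counts of the pair. MTCO1P12 (chr1:631074-632616) was 98.7% identical to MT-CO1, held 27.9% of its windows and took 14.8% to 18.6% of the pair. MTATP6P1 took 13.9% to 17.0% of the pair with MT-ATP6, and MTND1P23, MTCO2P12, MTCO3P12 and MTATP8P1 took at most 6.48%, 4.76%, 3.96% and 1.49% of theirs. The levels of these 7 genes, and so their order per length above, are therefore uncertain. Reads from either locus cannot be told apart where they match. Adding the counts of each copy to its gene, a choice made after the data were seen, left the numbers of members called below as they were (9 at 3 h with the lines averaged, 10 in SoF, 9 in Ctrl).

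The time course asked whether the new RNA of these genes changed under dexamethasone. Ethanol samples were not taken for each time. Dexamethasone and the time since the medium was changed therefore cannot be told apart. Tests were edgeR quasi-likelihood tests over all genes with Benjamini-Hochberg adjustment, and a gene is called at an adjusted p under 0.05. After 1 h no member was called in wt, SoF or Ctrl, or with the lines averaged, where the shares of all genes called were 0.156%, 0.165%, 0.0465% and 1.28%. The numbers of members with an unadjusted p under 0.05 were 5, 7, 0 and 3 of 37. Over all 23651 genes tested, 2602, 1645, 423 and 3332 had such a p. At 2 h the only call was MT-TS1 in wt, a fall of 0.65 ± 0.17 (SE, log2, adjusted p = 0.033), with 4.6% of all genes called in wt, 5.68% in SoF, 7.95% in Ctrl and 28.8% with the lines averaged.

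At 3 h, 9 of the 37 members were called with the lines averaged (24.3%), and all 9 were lower and were tRNAs. The share of all genes called there was 40.3%, and 19.3% of all genes were called lower, so that the members' share lay below the first and near the second. All 22 tRNAs had a log2 change below 0 (median -0.32, against -0.03 for all genes tested), as had all 13 coding genes (median -0.12), none of which was called. By line, 13 of 13 coding genes were below 0 in wt (median -0.26) and 12 in SoF (median -0.10). In Ctrl 7 of 13 were above 0 (median 0.01). Most of these genes share a precursor and all share the same libraries, so their signs are not independent. No coding gene was called in a difference of 3 h responses between lines. Within lines, 3 members were called in wt (10.7% of all genes, 4.12% lower), 1 in SoF (19.3%) and none in Ctrl (14.2%). In Ctrl 3 of 37 members had an unadjusted p under 0.05, beside 6706 of the 23651 genes tested. DESeq2 also called none in Ctrl.

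MT-TS1 had the smallest p. Its level in wt was 112 and 97.2 CPM at 0 h and 63.9 and 65.7 CPM at 3 h. In Ctrl it was 74.6 and 95.7 CPM at 0 h and 59.6 and 65.5 CPM at 3 h, and in SoF 69.7 and 67.8 CPM at 0 h and 75.2 and 53.3 CPM at 3 h. Both 3 h libraries lay below both 0 h libraries in wt and Ctrl, whereas the SoF libraries overlapped. The change averaged over lines was -0.41 ± 0.10 (SE, log2, adjusted p = 0.0024).

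MT-TY in wt was 42.6 and 34.5 CPM at 0 h and 21.2 and 18.9 CPM at 3 h. In Ctrl the values were 27.6 and 30.7 CPM, then 23.4 and 23.0 CPM, and in SoF 32.1 and 21.1 CPM, then 29.1 and 18.3 CPM. The groups were separate in wt and Ctrl and overlapped in SoF, and the averaged change was -0.48 ± 0.14 (SE, log2, adjusted p = 0.0089).

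MT-TA in wt was 41.7 and 28.3 CPM at 0 h and 24.3 and 20.6 CPM at 3 h. Ctrl gave 26.3 and 23.1 CPM, then 17.6 and 17.7 CPM, and SoF 26.1 and 19.4 CPM, then 24.4 and 18.2 CPM. The pattern over lines was that of MT-TY, with an averaged change of -0.41 ± 0.12 (SE, log2, adjusted p = 0.0075). MT-TS1, MT-TY and MT-TA were the members called in wt alone, and all are on the minus strand.

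MT-TV, the tRNA between the rRNA genes, showed another order of lines. SoF held 18.6 and 12.03 CPM at 0 h and 6.38 and 8.51 CPM at 3 h, so that its groups did not overlap. In wt the values were 20.8 and 11.8 CPM, then 13.4 and 12.4 CPM, and in Ctrl 9.28 and 12.1 CPM, then 9.84 and 9.54 CPM, and in both lines the groups overlapped. The change was -1.05 ± 0.26 in SoF (SE, log2, adjusted p = 0.0069) and -0.51 ± 0.15 with the lines averaged (adjusted p = 0.0093).

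MT-TF, MT-TH, MT-TK, MT-TW and MT-TQ were called only in the average, with log2 changes of -0.53, -0.45, -0.38, -0.33 and -0.21. MT-TF in wt was 216 and 105 CPM at 0 h and 90.8 and 101 CPM at 3 h, in SoF 167 and 92.6 CPM, then 64.4 and 95.7 CPM, and in Ctrl 122 and 122 CPM, then 102 and 118 CPM. Replicate 1 was the high library at 0 h in wt and SoF. Without the wt 0 h replicate 1 library, 3 of the 9 stayed called (MT-TA, MT-TS1 and MT-TY), and no member was called in wt. Without the wt 0 h replicate 2 library 15 members were called in the average and 8 in wt. Without the wt 3 h replicate 1 library 5 were called in the average and 0 in wt, and without the wt 3 h replicate 2 library 6 and 0. The SoF call of MT-TV was lost without the SoF 0 h replicate 1 or the SoF 3 h replicate 1 library.

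**Figure D2:**
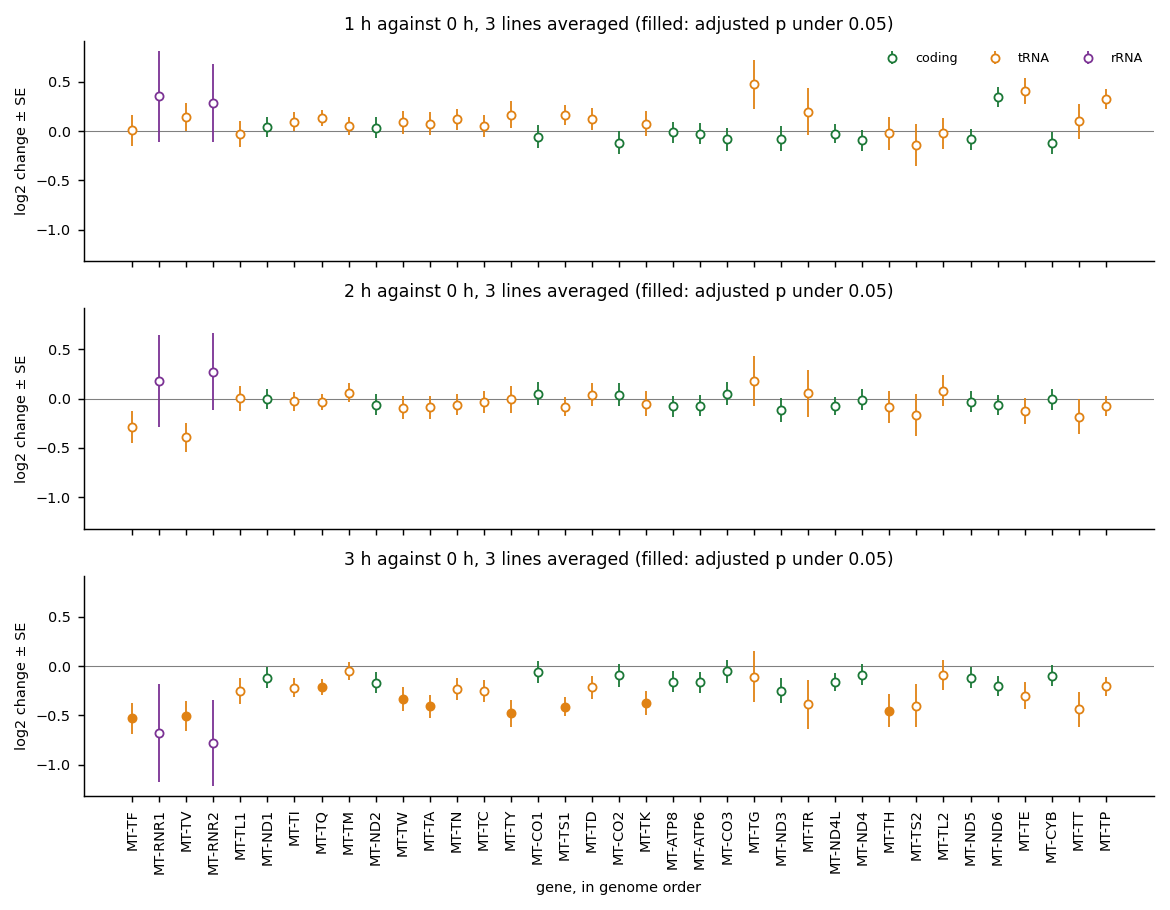
Log2 change (± SE) of each member against 0 h with the 3 lines averaged, after 1, 2 and 3 h, in genome order; filled points have an adjusted p under 0.05. At 3 h all 37 members lie below 0 and the 9 filled points are tRNAs; at 1 h and 2 h no point is filled.

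MT-ND6, the minus-strand complex I subunit, and the minus-strand tRNAs MT-TE and MT-TP had their highest mean level at 1 h, except that MT-TP in Ctrl was higher at 0 h (111 CPM) than at 1 h (103 CPM). MT-ND6 was 1714 and 1782 CPM at 0 h and 2957 and 2306 CPM at 1 h in SoF, 2121 and 1932 CPM then 2517 and 2189 CPM in wt, and 1904 and 2257 CPM then 2633 and 2253 CPM in Ctrl. The libraries were separate in SoF and wt and overlapped in Ctrl. The averaged log2 change was 0.35 ± 0.10 for MT-ND6 (adjusted p = 0.10), 0.41 ± 0.13 for MT-TE (adjusted p = 0.16) and 0.33 ± 0.10 for MT-TP (adjusted p = 0.13), so none passed. With the lines averaged, all 9 minus-strand members had a log2 change above 0 at 1 h, but within lines 6 of 9 did in wt, 9 in SoF and 5 in Ctrl. At 2 h all 9 were below 0 in the average and in wt, whereas 8 of 9 were above 0 in SoF and 6 in Ctrl. Of the 12 plus-strand coding genes at 1 h, 12 were below 0 in wt (median -0.34). In SoF 7 were above 0 (median 0.04) and in Ctrl 12 (median 0.12). None was called, and differences between lines at 1 h were not tested. The summed level of these 12 genes in wt was 64086 and 53573 CPM at 0 h and 54105 and 40801 CPM at 1 h. These wt groups overlapped. DESeq2 called MT-ND6 at 1 h (adjusted p = 0.026), and without the Ctrl 0 h replicate 2 library MT-ND6, MT-TE and MT-TP were called. Most of the minus strand carries no gene of its own but faces plus-strand genes, so the values of these genes rest on counting by strand.

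The design also asked whether the response at 3 h differed between receptors. No member was called in any of the 3 differences (SoF against wt, Ctrl against wt, SoF against Ctrl) by edgeR, where 0%, 0% and 0.0127% of all genes were called. The numbers of members with an unadjusted p under 0.05 were 2, 0 and 1, beside 558, 845 and 671 of the 23651 genes tested. DESeq2 also called no member in any of the 3 differences. For MT-TY the log2 difference of responses was 0.77 ± 0.34 (SE) for SoF against wt, and for MT-TV it was -0.71 ± 0.36. Neither passed. The lines were thus not shown to differ in the 3 h changes described above.

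The comparison of lines, with time ignored, asked how the members differed by receptor. Of the 36 members tested, 10 were called in SoF against wt and all were lower, where 8.02% of all genes were called and 3.45% lower. In Ctrl against wt 9 were called, 8 lower and 1 higher, where 4.77% of all genes were called, 2.66% lower and 2.11% higher. MT-TM was the only member called in SoF against Ctrl (3.61% of all genes). The 13 coding genes had a median log2 difference of -0.37 in SoF and -0.32 in Ctrl, against -0.0073 and -0.0045 for all genes tested.

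Among the coding genes MT-ND5, a complex I subunit, had the largest difference in both mutants. It ranged from 2769 to 4432 CPM in wt (median 3531), from 2068 to 2734 CPM in SoF (median 2598) and from 1972 to 2508 CPM in Ctrl (median 2365). No library of either mutant reached the lowest wt library. The log2 difference was -0.52 ± 0.09 in SoF (SE, adjusted p = 0.00066) and -0.63 ± 0.09 in Ctrl (adjusted p = 8.3e-05). MT-ND5 and MT-TL1 were the 2 members whose SoF libraries did not overlap with wt, as 1.12% of all genes did, and MT-ND5 the 1 member in Ctrl, as 0.961% of all genes did.

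MT-ND4 ranged from 4289 to 6720 CPM in wt (median 5281), from 3259 to 4357 CPM in SoF (median 4030) and from 3501 to 4505 CPM in Ctrl (median 4218). The ranges overlapped slightly, and the differences were -0.48 ± 0.09 and -0.42 ± 0.09 (SE, log2). MT-ND4L, which overlaps MT-ND4, had -0.37 and -0.40, and MT-ND1 had -0.43 and -0.33, all called. MT-ND2, MT-ND3 and MT-ND6 were not called. MT-ND2 ranged from 4720 to 6692 CPM in wt, from 3796 to 6140 CPM in SoF and from 4618 to 6045 CPM in Ctrl, and its differences were -0.13 ± 0.09 and -0.01 ± 0.09, the latter positive (0.03) without the wt 0 h replicate 1 library. MT-ND6 differed by -0.02 ± 0.13 and 0.02 ± 0.13.

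In complex IV, MT-CO1 ranged from 8948 to 14432 CPM in wt (median 12036), from 7331 to 9679 CPM in SoF (median 9007) and from 8156 to 10574 CPM in Ctrl (median 9708). The differences were -0.45 ± 0.09 in SoF (adjusted p = 0.0040) and -0.32 ± 0.09 in Ctrl (adjusted p = 0.045). MT-CO2 was lower by the same test in both (-0.46 and -0.36). MT-CO3 was called in SoF (-0.39 ± 0.09, adjusted p = 0.014) and had -0.22 ± 0.09 in Ctrl (adjusted p = 0.19), though SoF and Ctrl were not shown to differ (-0.17 ± 0.09, adjusted p = 0.46). MT-CYB, the mitochondrial subunit of complex III, was called in both (-0.32 and -0.34). The complex V subunits were called in neither, with -0.28 and -0.25 for MT-ATP6 (adjusted p = 0.052 in SoF) and -0.19 and -0.19 for MT-ATP8.

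Among tRNAs, MT-TL1 ranged from 87.8 to 194 CPM in wt, from 55.0 to 86.1 CPM in SoF and from 70.3 to 105 CPM in Ctrl, and its differences were -0.66 ± 0.13 and -0.48 ± 0.13 (SE, log2). MT-TQ was lower in SoF (-0.34 ± 0.09, adjusted p = 0.020). Of the 22 tRNAs, 19 were below 0 and 3 above in SoF against wt (median log2 difference -0.25). In Ctrl against wt 14 were below 0 and 8 above (median -0.12). MT-TM, the tRNA next to MT-ND2, was the member called higher in Ctrl. It held 36.8 to 50.4 CPM in wt, 32.2 to 51.7 CPM in SoF and 48.3 to 57.6 CPM in Ctrl, so that Ctrl was higher than wt by 0.29 ± 0.08 (adjusted p = 0.039) and SoF lower than Ctrl by 0.33 ± 0.08 (adjusted p = 0.019).

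**Figure D3:**
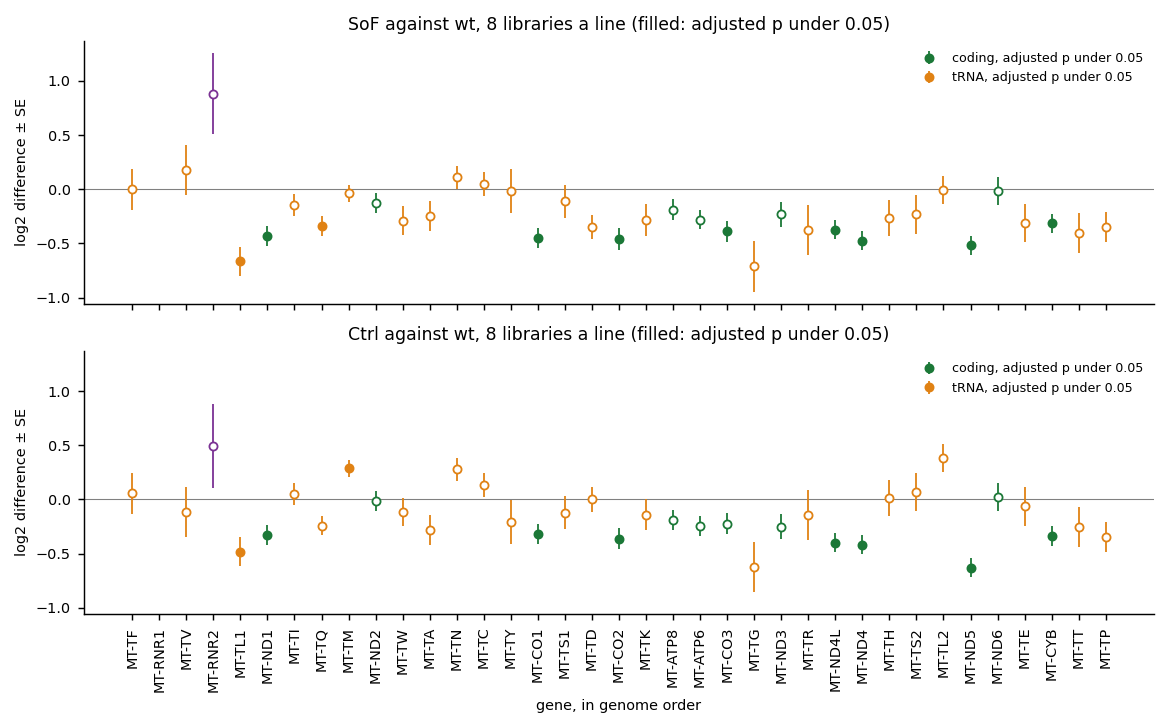
Log2 difference (± SE) of each member between a mutant line and wt, 8 libraries a line, in genome order; filled points have an adjusted p under 0.05. In SoF the 10 filled points lie below 0; in Ctrl 8 lie below 0 and MT-TM above.

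These calls rest on all 8 libraries of a line, and the 8 libraries cover 4 times and are not replicates of 1 condition. With the replicate 1 libraries left out, 0 members were called in each of the 3 comparisons. With the replicate 2 libraries left out the numbers were 0, 1 and 0, and with the 0 h libraries alone 0 in each. These fits hold fewer libraries, and the shares of all genes called in them are not given here. Whether the calls were lost through the smaller number of libraries was not tested. Without the wt 0 h replicate 1 library alone, 10 were called in SoF and 4 in Ctrl (MT-ND4, MT-ND4L, MT-ND5 lower, MT-TM higher). NR3C1 ran from 334 to 1595 CPM in wt. It ran from 1118 to 6273 CPM in SoF and from 1627 to 7658 CPM in Ctrl. Receptor RNA thus moved with the line in the direction opposite to the coding genes, and its part in the result was not tested. This is labelled RNA and does not measure receptor protein. The study picked sorted fractions so that nuclear GR, measured by immunofluorescence, was similar between lines. Library totals ran from 11506147 to 15820806 in wt, from 9056350 to 13410755 in SoF and from 8106036 to 15060777 in Ctrl. The 83 genes for cytosolic ribosomal proteins took 1.26% to 1.65% of counts in wt, 1.30% to 1.55% in SoF and 1.31% to 1.58% in Ctrl. Against wt, 1 of these genes was called higher and 4 lower in SoF, where 8.02% of all genes were called. In Ctrl 2 were called higher and 3 lower, where 4.77% of all genes were called.

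Within a library, the ratio of 2 mitochondrial genes does not depend on the library size. MT-ND5 relative to MT-ND2, in counts per base, was 0.337 to 0.403 in wt, 0.244 to 0.317 in SoF and 0.227 to 0.260 in Ctrl. The wt range was separate from both mutants. MT-ND1 relative to MT-ND2 was 1.06 to 1.15 in wt, 0.828 to 0.983 in SoF and 0.833 to 0.943 in Ctrl. Both ratios were chosen after the differences had been seen and are given as a description. Of the 12 coding genes set against MT-ND2, 4 had ratios in SoF that did not overlap with wt (MT-ND1, MT-ATP6, MT-ND4L and MT-ND5) and 8 had ratios that did. In Ctrl 8 did not overlap with wt and 4 did. All 12 ratios share the denominator MT-ND2, which was not called between lines. They are therefore not independent, and lower ratios follow in part from the differences already given. These counts too are a description and add no separate support. MT-ND2 is itself the gene whose nuclear copy took the largest share of the pair, at 23.4% to 26.5%.

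**Figure D4:**
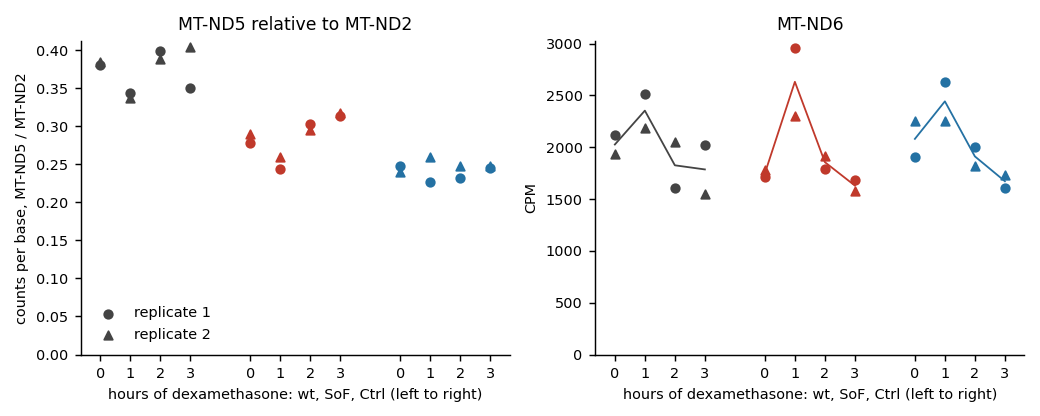
Left, MT-ND5 relative to MT-ND2 in counts per base for each library, by line (wt black, SoF red, Ctrl blue) and hours; right, MT-ND6 in CPM, with lines through the mean of 2 libraries. The wt ratios run from 0.337 to 0.403, above all mutant ratios, and MT-ND6 is highest at 1 h in each line.

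**Figure D5:**
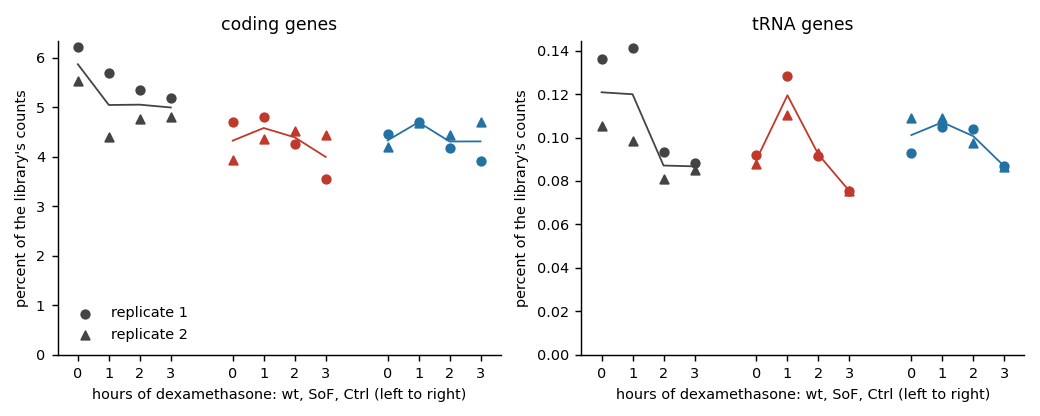
Percent of a library's counts in the coding genes (left) and in the tRNAs (right), by line and hours, with circles and triangles for replicates 1 and 2 and lines through the mean of 2 libraries. Coding shares run from 4.40% to 6.21% in wt, from 3.55% to 4.80% in SoF and from 3.91% to 4.70% in Ctrl.

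The genes that transcribe and process mitochondrial RNA are nuclear. Of 15 genes of mitochondrial transcription and replication, 5 rose and 2 fell at 3 h with the lines averaged, a share near the 40.3% of all genes called. POLRMT, the mitochondrial RNA polymerase, ranged from 5.06 to 9.50 CPM at 0 h, from 3.73 to 7.34 CPM at 1 h, from 14.0 to 23.9 CPM at 2 h and from 15.6 to 26.2 CPM at 3 h. All 2 h and 3 h libraries lay above all 0 h libraries, with a log2 change at 3 h of 1.61 ± 0.15 (SE, n = 6 libraries a time) and calls in each line (1.12, 1.87 and 1.83 in wt, SoF and Ctrl). TFB2M, which opens the promoter with POLRMT, rose by 0.30 ± 0.10, and TFAM, the DNA-packaging activator, had -0.07 ± 0.08 and was not called. POLG, the replicative polymerase, rose by 0.45 and SSBP1, the single-strand binding protein, fell by 0.49 on the log2 scale.

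Of 24 genes of mitochondrial RNA processing and decay, 9 rose and 1 fell at 3 h, again near the 40.3% of all genes. ELAC2, which cuts the 3′ end of tRNAs from precursors, rose by 0.50 ± 0.08 (log2) with calls in each line, and MRM1, an rRNA methyltransferase, and REXO2, an exonuclease for short RNA, rose by 0.54 and 0.46. LRPPRC, which stabilises the coding transcripts, had -0.10 ± 0.10 and was not called. Of 7 nuclear regulators, 4 rose and 1 fell. PPARGC1B, a coactivator of mitochondrial genes, ranged from 8.02 to 12.8 CPM at 0 h, from 3.08 to 7.02 CPM at 2 h and from 20.5 to 38.2 CPM at 3 h (log2 change 1.55 ± 0.14), and ESRRA, a nuclear receptor that acts with it, rose by 0.89 and YY1 by 0.39. PPARGC1A fell by 1.18 in SoF and by 1.05 in Ctrl on the log2 scale.

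The nuclear subunits of the same complexes moved unevenly at 3 h. In complex I 6 of 37 rose and 5 fell, in complex III 0 of 9, in complex IV 0 of 11 rose and 2 fell, and in complex V 7 of 16 rose and none fell. NDUFB10 and NDUFV3 of complex I rose by 0.74 and 0.41 and NDUFB9 fell by 0.33 on the log2 scale, COX6C and NDUFA4 of complex IV fell by 0.25 and 0.29, and ATP5IF1, the inhibitor of the ATP synthase, rose by 0.78, with 0.42 for ATP5MC3 and 0.32 for ATP5F1C. Of the 83 cytosolic ribosomal protein genes 1 rose and 5 fell, and of the 10 nuclear copies measured 1 fell (MTND1P23, by 0.26). These shares stand beside 40.3% of all genes called, 4953 higher and 4572 lower.

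Between lines, 8.02% of all genes were called in SoF and 4.77% in Ctrl against wt. TFB1M, the mitochondrial rRNA methyltransferase, was higher than wt in SoF (0.46 ± 0.11) and Ctrl (0.51 ± 0.11, log2), as was SUPV3L1, the helicase of the RNA degradation machinery (0.23 and 0.22). POLRMT differed by 0.09 ± 0.41 and 0.21 ± 0.41, TFAM by 0.08 ± 0.07 and 0.02 ± 0.07, TFB2M by -0.07 ± 0.12 and -0.14 ± 0.12 and LRPPRC by 0.22 ± 0.10 and 0.21 ± 0.10, and none of these 4 was called. MTERF1, which binds mitochondrial DNA within MT-TL1, was higher in SoF than in Ctrl (0.53 ± 0.11, adjusted p = 0.0044). In the transcription list 2 genes were higher and 1 lower in SoF (MTERF1 0.35, MGME1 -0.19) and 2 higher in Ctrl (MTERF4 0.22), and in the processing list 2 were higher in SoF (TRIT1 0.33), and 2 higher and 2 lower in Ctrl (PDE12 -0.32, FASTK -0.58). PDE12, a phosphodiesterase that trims poly(A) tails, was also higher in SoF than in Ctrl (0.39). None of the 7 regulators was called between lines by edgeR.

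Of the nuclear subunits, complex I had NDUFV2 higher (0.23) and NDUFC2 lower (-0.26) in SoF and NDUFA6 lower (-0.31) in Ctrl, on the log2 scale against wt. Complex III had UQCRC2 higher in SoF (0.27) and UQCRC1 lower in Ctrl (-0.56), and complex IV had COX5A lower in SoF (-0.45). ATP5F1E of complex V was higher in both mutants (0.30 and 0.28), and ATP5MF was higher in SoF than in wt (0.40) and in Ctrl (0.41). Of the nuclear copies of mitochondrial DNA, 6 of 10 were lower in SoF than wt, where 3.45% of all genes were lower, and 2 of 10 in Ctrl (MTND1P23 and MTND5P11), where 2.66% were lower, and reads shared with the mitochondrial genes cannot be told apart.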

How the data were processed

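RNA labelled with 4-thiouridine was sequenced in 24 libraries. According to the study's methods and the submitters' processing notes, the authors tagged molecular identifiers (UMI-tools 1.1.2), trimmed (Trim Galore 0.6.6), aligned to hg38 (STAR 2.7.3a), removed duplicates and counted reads over GENCODE exons with featureCounts. The deposited values are whole-number counts per gene without normalization, and how reads matching several places were treated is not given in the sources used here. That strand was used in counting is known from the name of the table alone, which bears on the minus-strand members. Gene symbols and hg38 coordinates came from GENCODE release 44 (61369 of 61533 genes matched).

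Counts were tested in edgeR 4.0.16 (R 4.3.3) with TMM, filterByExpr (minimum count 10) and the quasi-likelihood test, in a fit over 12 groups (23651 genes) and a fit over 3 lines (21122 genes). An adjusted p under 0.05 was a call. The steps were tested on simulated data. Library totals of 8106036 to 15820806 set the counting precision. Alternatives were DESeq2 1.42.0, another scaling, no count filter, a replicate block and leaving libraries out. The members, gene lists and tests were chosen with earlier results of these data known. By rule, the 13 coding genes, both rRNAs, the 6 highest and 2 lowest tRNAs and any called tRNA were named, with up to 3 called genes of each nuclear list and POLRMT, TFAM, TFB2M and LRPPRC. The result of 1 marker gene is not reported here.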

Additional observations from a re-analysis of the deposited data

Results flagged for a closer look

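In 99 groups of 8 libraries of a line (class shares and named members), 7 had a highest library whose gap to the next exceeded Dixon's 95% critical value. For independent groups of like libraries, chance alone flags about 1 group in 20, or 4.95 here. These groups cover 4 times and share libraries, so 4.95 is only a rough guide. Of the 7 flags, 4 were in the same library, wt 0 h replicate 1. Its values were 216 CPM of MT-TF (next 139), 194 CPM of MT-TL1 (next 130), 20.8 CPM of MT-TV (next 13.4) and 3.71 CPM of MT-TR (next 2.43). The others were MT-TP in SoF at 1 h replicate 1 with 156 CPM (next 106), MT-TY in Ctrl at 2 h replicate 1 with 39.7 CPM (next 30.7) and MT-RNR1 in Ctrl at 1 h replicate 2 with 1.21 CPM (next 0.509). The cause was not tested.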

How the results depend on the processing

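Of 34 calls of members over the comparisons, 0 were lost with DESeq2, with RLE size factors, with scaling that left out the mitochondrial genes or with a replicate block, and 8 were lost without the count filter. The shares of all genes called under the settings below, or with libraries left out, are not given here. Counts of members alone therefore do not show whether the members moved more than other genes. The counts of called members that moved were as follows. Without the filter there were 1 in SoF and 2 in the average at 1 h, 3 in wt, 1 in SoF and 2 in the average at 2 h, 8 in wt and 2 in SoF at 3 h, and 4 in Ctrl against wt and 0 in SoF against Ctrl. DESeq2 gave 1 in the average at 1 h, 2 in wt and 1 in the average at 2 h, and 6 in wt and 2 in SoF at 3 h. RLE and the scaling without mitochondrial genes each gave 1 in the average at 2 h. With time as an additive term 17, 15 and 3 were called in SoF against wt, Ctrl against wt and SoF against Ctrl, and 0 of 20 line calls were lost. With the 0 h libraries alone there were 0 in each, while the median log2 differences were larger, at -0.53 (coding) and -0.57 (tRNA) in SoF and -0.54 and -0.35 in Ctrl against wt. Without the 10 most abundant other genes the mean coding share was 5.84% in wt and 4.87% in Ctrl, and the tRNA share in Ctrl 0.109%. The cause was not tested.

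The replicate block gave 2 members in wt, 1 in SoF and 1 in the average at 2 h, and 5 in wt at 3 h. Replicate numbers did not pair the libraries by the rule used (correlations of the replicate differences between groups from -0.22 to 0.57, with 21 of 66 pairs over 0.1), although the 0 h groups of the 3 lines lay between 0.39 and 0.57.

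Leaving out libraries in turn gave 0 to 1 called members in SoF and 0 to 3 in the average at 1 h. At 2 h the ranges were 0 to 1 in wt, 0 to 1 in SoF and 0 to 2 in the average, and at 3 h 0 to 8 in wt, 0 to 2 in SoF, 0 to 1 in Ctrl and 3 to 15 in the average. Between lines they were 0 to 10 in SoF against wt, 0 to 4 in Ctrl against wt and 0 to 1 in SoF against Ctrl, with median log2 differences from -0.34 to -0.060 (tRNA, SoF), -0.49 to -0.13 (coding, Ctrl) and -0.25 to 0.17 (tRNA, Ctrl). In Ctrl against wt MT-ND2 ran from -0.16 without replicate 2 to 0.14 without replicate 1, and MT-ND6 from -0.016 without replicate 2 to 0.072 without replicate 1, so both changed sign, as did MT-ND2 without the wt 0 h replicate 1 library (0.029), a setting chosen after seeing the data. Depth limits MT-TG, MT-TR and the rRNAs.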
